A study of Mus musculus with 10 samples.

Results

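The 7 genes described here, Speer4b, Speer4c, AY358078, BC061237, Btbd35f1, Btbd35f17 and Zfp972, were grouped as genes with further copies in the mouse genome, and were 7 of 22180 genes measured on the arrays. Speer4b, BC061237 and both Btbd35f genes share probe sets with other copies, Speer4c and Zfp972 have several relatives by sequence at the start site, and AY358078 had 1. They were chosen by their log2 difference between Ezh2-/- and Ezh2+/+ tumours, so that this difference is given as a description without a test. Every probe set whose only annotated symbol was one of them was taken, which gave 9 of 41345 probe sets, with 3 for BC061237 and 1 for each of the others. Speer4c had the difference nearest to 0, at -2.12, and the next gene past it that was called lower with no overlap between genotypes was the vomeronasal receptor gene Vmn1r94, at -2.09. The 7 genes lay at places 13 to 30 when all genes were ordered from the largest fall upwards.

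The samples were 5 Ezh2-/- and 5 Ezh2+/+ tumours of Tet-ON PyVmT mice, with 1 array of total RNA for each tumour. In both genotypes, young adult females on an FVB background were given doxycycline, which acts on a reverse tetracycline transactivator, driven by the MMTV promoter in the mammary epithelium, to switch on PyVmT (polyomavirus middle T antigen) and Cre from a single transcript. In Ezh2-/- tumours the same Cre removes the conditional alleles of Ezh2, the methyltransferase of the PRC2 complex that places H3K27me3, while the other cells of the tumour keep the gene. The tumours were taken at the endpoint of growth and frozen whole. The paper reports a later tumour onset in Ezh2-/- mice. Age and time on doxycycline at the endpoint are not in the labels and may differ between genotypes. The labels number the tumours as biological replicates without naming the mouse, so that the spread between tumours is the only error measured.

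The values are gene-level signals on a log2 scale, where 1 unit is a 2-fold difference. Ezh2 was between 6.36 and 6.50 in Ezh2-/- tumours and between 6.98 and 7.69 in Ezh2+/+ tumours, in the direction of its labels in all 10 tumours. Array medians were 4.35 to 4.46 in Ezh2-/- tumours, against 4.54 to 4.67 in Ezh2+/+ tumours. Over all genes, the median difference was 0.03. The luminal keratins and other markers of the labelled tissue (Krt8, Krt18, Krt19, Epcam, Cdh1, Elf5) lay between 8.07 and 10.25 in Ezh2-/- tumours and between 8.07 and 10.31 in Ezh2+/+ tumours, and limma called 0 of 6 at an adjusted p under 0.05 (2 had an unadjusted p under 0.05, and 0 passed the methods' own test).

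Speer genes (spermatogenesis-associated glutamate-rich) were described from mouse testis, where they are transcribed in developing sperm cells, and the Speer4 copies lie in blocks on chromosome 5. The Btbd35f genes are X-linked copies that encode BTB-domain proteins, and Btbd35f1 carries older names that refer to the germ cell-less gene, which was first described in Drosophila. Zfp972 belongs to the zinc finger genes, which encode DNA-binding proteins and have expanded in clusters in the mouse. AY358078 and BC061237 are named after cDNA clones, and no role is given for them here. Copies so alike are hard to tell apart on an array, since a probe made for one can bind transcripts of the others.

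How alike the copies are can be read in the sequence at their start sites. RefSeq windows (GRCm38.p6, from the C57BL/6J strain, while the mice were FVB) reach from 250 bases before the transcription start to 50 bases after it, and were at hand for 4 of the 7 genes. They are shown because Speer4b and Speer4c, both among the 7, have nearly the same one, whereas AY358078 and Zfp972 have others. Capitals mark CCAAT or its reverse complement ATTGG. The windows are chr5:27501343-27501642 (minus strand) for Speer4b, chr5:15714222-15714521 (minus strand) for Speer4c, chr14:51799796-51800095 (plus strand) for AY358078 and chr2:177925601-177925900 (minus strand) for Zfp972.
Speer4b: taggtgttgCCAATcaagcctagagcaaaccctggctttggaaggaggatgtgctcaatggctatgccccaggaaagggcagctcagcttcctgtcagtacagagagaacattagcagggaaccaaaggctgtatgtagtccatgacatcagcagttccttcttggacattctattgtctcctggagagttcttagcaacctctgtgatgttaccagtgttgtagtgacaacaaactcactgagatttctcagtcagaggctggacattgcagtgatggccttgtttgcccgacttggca
Speer4c: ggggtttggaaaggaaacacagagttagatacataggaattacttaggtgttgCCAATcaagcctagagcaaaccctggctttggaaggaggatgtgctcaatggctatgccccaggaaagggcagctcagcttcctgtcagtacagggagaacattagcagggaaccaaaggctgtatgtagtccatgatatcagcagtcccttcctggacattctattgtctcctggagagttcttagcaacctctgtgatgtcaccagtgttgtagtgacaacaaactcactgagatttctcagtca
AY358078: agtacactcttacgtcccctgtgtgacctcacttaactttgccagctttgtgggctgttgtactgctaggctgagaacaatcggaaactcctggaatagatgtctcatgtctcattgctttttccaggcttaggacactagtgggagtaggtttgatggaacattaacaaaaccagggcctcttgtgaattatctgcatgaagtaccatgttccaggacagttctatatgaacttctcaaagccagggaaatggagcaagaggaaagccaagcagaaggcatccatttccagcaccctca
Zfp972: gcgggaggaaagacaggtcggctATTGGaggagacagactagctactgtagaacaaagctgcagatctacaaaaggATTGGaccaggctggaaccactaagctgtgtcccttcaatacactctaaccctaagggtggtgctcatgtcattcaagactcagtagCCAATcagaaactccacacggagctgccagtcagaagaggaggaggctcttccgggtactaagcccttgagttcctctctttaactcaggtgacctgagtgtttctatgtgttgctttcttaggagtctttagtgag

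Over the 256 bases that could be aligned, the windows of Speer4b and Speer4c were 98.0% identical, with 5 mismatches. Both held 1 match to CCAAT, Zfp972 held 3 and AY358078 held 0, and 37.4% of all 32851 windows held at least 1 on either strand. All 4 were poor in CpG, with 1 in Speer4b, 0 in Speer4c, 2 in AY358078 and 4 in Zfp972, against a median of 7 over all windows. Matches to letters are a description of these windows, not of bound sites.

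Both Speer4 genes were lower in every Ezh2-/- tumour than in any Ezh2+/+ tumour. Speer4b was at 3.23, 3.38, 3.03, 3.18 and 2.62 in the 5 Ezh2-/- tumours (replicates 1 to 5), against 4.79, 4.69, 5.60, 5.00 and 6.15 in the 5 Ezh2+/+ tumours. The highest Ezh2-/- tumour stayed 1.32 below the lowest Ezh2+/+ tumour, and the Ezh2+/+ tumours were spread more widely. The means were 3.09 ± 0.29 in Ezh2-/- tumours and 5.25 ± 0.62 in Ezh2+/+ tumours (SD, n = 5 each), a difference of -2.16.

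Speer4c, which lies in another block of the same chromosome, was at 4.38, 4.56, 4.80, 4.47 and 4.46 in Ezh2-/- tumours, against 6.67, 6.49, 6.59, 6.21 and 7.32 in Ezh2+/+ tumours. The Ezh2-/- tumours lay within a narrow band and the Ezh2+/+ tumours were all above it. The means were 4.53 ± 0.16 in Ezh2-/- tumours and 6.66 ± 0.41 in Ezh2+/+ tumours (SD, n = 5 each), a difference of -2.12.

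AY358078 had clear signals in both genotypes. It was at 5.49, 6.11, 6.0, 5.90 and 5.60 in Ezh2-/- tumours, against 8.56, 7.99, 8.58, 8.11 and 8.52 in Ezh2+/+ tumours. The gap between the genotypes, 1.89, was larger than the whole range of either. The difference of the means was -2.53, from 5.82 ± 0.26 in Ezh2-/- tumours and 8.35 ± 0.28 in Ezh2+/+ tumours (SD, n = 5 each).

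BC061237 was measured by 3 probe sets of its own, of which 2 showed the large difference and 1 did not. The one used for the gene in the fit was at 4.55, 4.62, 3.71, 4.31 and 4.89 in Ezh2-/- tumours, against 7.07, 7.14, 7.18, 6.70 and 7.84 in Ezh2+/+ tumours, with means that differed by -2.77. The second was at 3.61, 4.44, 3.46, 4.77 and 4.65 in Ezh2-/- tumours, against 6.79, 6.94, 7.0, 6.44 and 7.66 in Ezh2+/+ tumours, with means that differed by -2.78. In both, the genotypes stood apart, by 1.81 and 1.67.
The third was at 2.42, 2.04, 2.07, 2.37 and 2.38 in Ezh2-/- tumours, against 2.74, 2.51, 2.32, 2.44 and 2.82 in Ezh2+/+ tumours. Its genotypes overlapped, and its means differed by -0.31. It was dim on all 10 arrays, within the range that Y-linked genes had in these female mice. Why it differed from the other 2 was not tested.

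Both Btbd35f genes were far lower in Ezh2-/- tumours. Btbd35f1 was at 5.47, 5.15, 5.67, 5.40 and 5.84 in Ezh2-/- tumours, against 7.85, 7.97, 7.92, 7.78 and 8.31 in Ezh2+/+ tumours. With SDs of 0.26 in Ezh2-/- tumours and 0.20 in Ezh2+/+ tumours (n = 5 each), it varied little within a genotype, and its means differed by -2.46. Btbd35f17 was at 2.24, 3.39, 3.30, 2.85 and 2.83 in Ezh2-/- tumours, against 5.42, 5.58, 6.12, 5.66 and 6.30 in Ezh2+/+ tumours.
Its means differed by -2.89, with a gap of 2.04 between the genotypes.

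Zfp972 was at 3.92, 3.42, 3.33, 4.43 and 3.94 in Ezh2-/- tumours, against 6.21, 5.66, 6.51, 5.95 and 7.07 in Ezh2+/+ tumours. Its groups did not overlap, with a gap of 1.23 between them. The means were 3.81 ± 0.45 in Ezh2-/- tumours and 6.28 ± 0.54 in Ezh2+/+ tumours (SD, n = 5 each), a difference of -2.47.

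**Figure D1:**
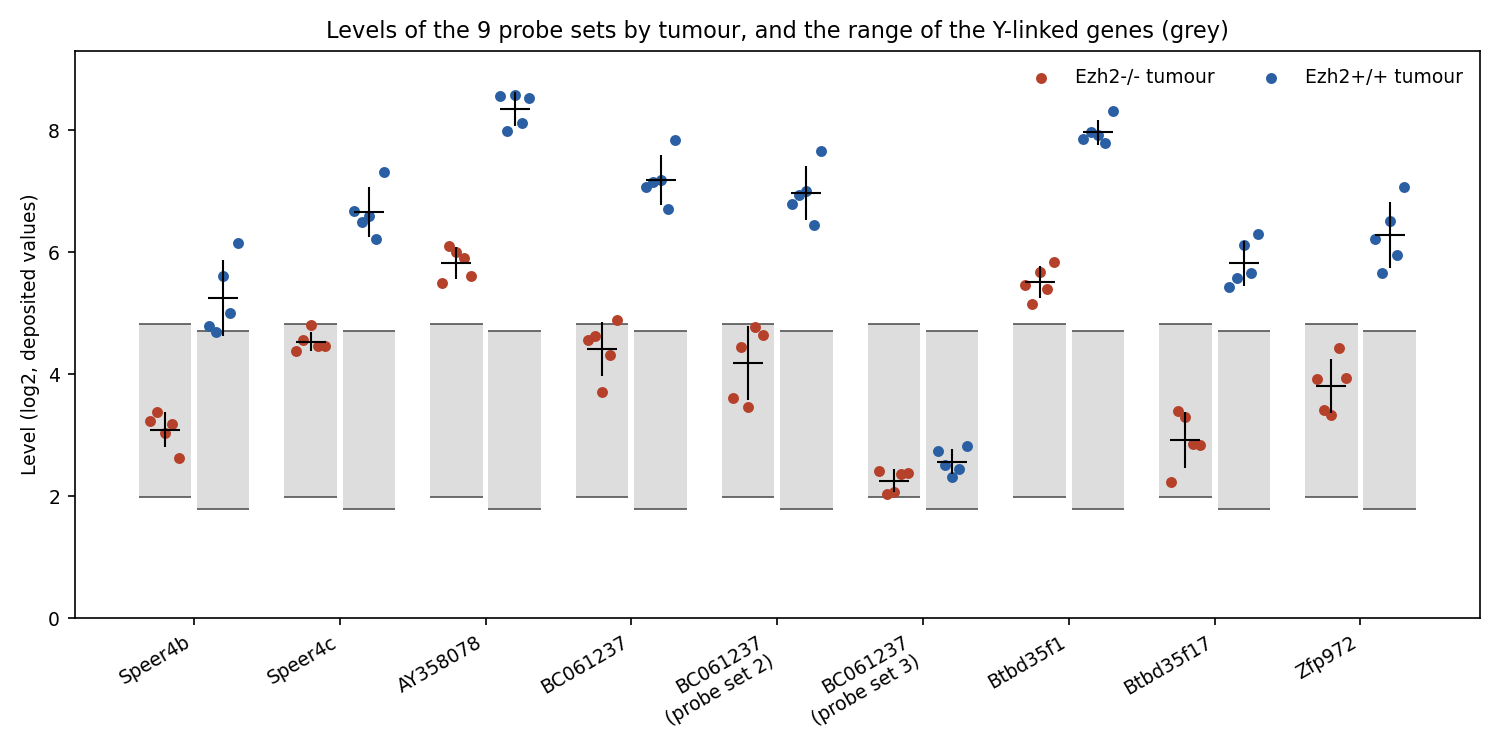
Level of each of the 9 probe sets (y axis, log2 of the deposited values) in 5 Ezh2-/- tumours (red, left of each pair) and 5 Ezh2+/+ tumours (blue, right), with the mean and SD as a cross and the range of 7 Y-linked genes on the same arrays in grey. Only the third probe set of BC061237 overlaps between genotypes, and most Ezh2-/- points lie in or just above the grey range.

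In 8 of the 9 probe sets every Ezh2-/- tumour lay below every Ezh2+/+ tumour, which holds for 6.63% of all genes, and nothing is read from this count because the genes were picked for the contrast. Probe sets that list one of the 7 beside other symbols were not used in the choice of members by symbol, yet they come from the same contrast and the same families and are likewise described without a test. There were 18 of them, 16 with values of their own, and each listed between 4 and 17 symbols. All 18 had no overlap between genotypes. Their differences ran from -2.94 to -1.92, with a median of -2.48. The 9 that name Btbd35 genes had a median difference of -2.87, the 5 that name BC061237 had -2.36, and the 4 that name Speer4b had -1.97. In the BC061237 set, all 5 list the same 3 further symbols, Gm10377, Gm10375 and 1700001F09Rik. No probe set listed Speer4c, AY358078 or Zfp972 beside another gene.

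A signal on an array does not reach 0 when no RNA is present, so the bottom of the scale was read from genes of the Y chromosome, which female mice lack. The 7 Y-linked genes measured (Eif2s3y, Kdm5d, Sry, Uba1y, Usp9y, Uty and Zfy2) lay between 1.99 and 4.82 in Ezh2-/- tumours and between 1.78 and 4.70 in Ezh2+/+ tumours. The upper end was set by the sex-determining gene Sry and by Uba1y. Without these 2, the others lay between 1.99 and 3.28 in Ezh2-/- tumours and between 1.78 and 2.81 in Ezh2+/+ tumours. The 5th percentile of all probe sets was at 1.70 to 1.83 in Ezh2-/- tumours and at 1.63 to 1.72 in Ezh2+/+ tumours.

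The 7 genes differed in their distance from this floor in both genotypes. Their mean distance above the median Y-linked gene ranged from 0.32 to 3.21 in Ezh2-/- tumours. In Ezh2+/+ tumours it ranged from 2.77 to 5.87. Probe sets differ in how well they bind, so their distances are not amounts of RNA. On Ezh2+/+ arrays, all 7 were above every Y-linked gene in 5 of 5 tumours. On Ezh2-/- arrays, AY358078 and Btbd35f1 were above every Y-linked gene in 5 of 5 tumours, Speer4c and the BC061237 probe set of the fit in 1 of 5, and Speer4b, Btbd35f17 and Zfp972 in 0 of 5. AY358078 stood on average 3.21 above the median Y-linked gene of the same array in Ezh2-/- tumours, against 5.87 in Ezh2+/+ tumours. Btbd35f1 stood 2.90 above it in Ezh2-/- tumours, against 5.49 in Ezh2+/+ tumours. Both were thus above the floor in both genotypes.

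Speer4b and Btbd35f17 were at the other end. Speer4b stood 0.49 above the median Y-linked gene in Ezh2-/- tumours, and from 0.25 below it to 0.76 above it in single tumours, against 2.77 on average in Ezh2+/+ tumours. Btbd35f17 stood 0.32 above it in Ezh2-/- tumours, against 3.34 in Ezh2+/+ tumours. A level so near the floor cannot be told from none, so the differences given for these 2 genes may be smaller than the differences in RNA. Zfp972 at 1.20, BC061237 at 1.81 and Speer4c at 1.93 above the median Y-linked gene in Ezh2-/- tumours lay between the extremes, against 3.80, 4.71 and 4.18 in Ezh2+/+ tumours.

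The place among all probe sets of the same array, as a percentile from the dimmest up, needs no Y-linked genes. AY358078 was at percentiles 66.6 to 74.1 in Ezh2-/- tumours, against 92.3 to 95.2 in Ezh2+/+ tumours. Btbd35f17 was at percentiles 12 to 30.8 in Ezh2-/- tumours, against 65.7 to 78.5 in Ezh2+/+ tumours. The third BC061237 probe set was at percentiles 9.40 to 14.6 in Ezh2-/- tumours, against 12.5 to 17.9 in Ezh2+/+ tumours. The 40% dimmest genes averaged 3.20 to 3.34 in Ezh2-/- tumours, against 3.38 to 3.51 in Ezh2+/+ tumours, so that dim signals were also somewhat lower on Ezh2-/- arrays, by far less than the 7 genes.

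Other members of the same families were tested with limma over all 22180 genes, of which 7.56% were called lower and 7.29% higher. By the methods' own test, 1153 of all genes were lower and 862 higher. The share of all genes at an unadjusted p under 0.05 was not counted, so list counts under that rule have no background. Of 13 further Speer genes, 6 fell and 0 rose, with a median difference of -0.71 (8 lower and 0 higher at an unadjusted p under 0.05, and 5 lower and 0 higher by the methods' own test). Speer4cos, a transcribed pseudogene on the opposite strand that overlaps Speer4c, had the largest difference, with 4.86 ± 0.38 in Ezh2-/- tumours and 6.92 ± 0.22 in Ezh2+/+ tumours (SD, n = 5 each; log2 difference -2.06, adjusted p = 3.1e-05). Speer4d fell by 1.44 (adjusted p = 0.00115), Speer1 by 0.95 (adjusted p = 0.00584) and Speer2 by 0.88 (adjusted p = 0.0077), all by limma. In Ezh2-/- tumours these genes averaged 1.96, 2.74 and 2.53, against 3.405, 3.69 and 3.41 in Ezh2+/+ tumours. These means lay within or below the range of the Y-linked genes. Speer4a and Speer4f1, copies of the same subfamily, were not called. Speer4a was at 5.69 ± 0.25 in Ezh2-/- tumours and 6.01 ± 0.24 in Ezh2+/+ tumours (SD, n = 5 each), above the Y-linked genes in both, and its difference of -0.32 was within the overlap of the genotypes. Speer4f1 was at 2.23 ± 0.36 in Ezh2-/- tumours and 2.19 ± 0.27 in Ezh2+/+ tumours (SD, n = 5 each), in the range of the Y-linked genes.

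Of 7 further Btbd35 genes, 5 fell and 0 rose, with a median difference of -1.17 (the counts were also 5 and 0 at an unadjusted p under 0.05 and by the methods' own test). Btbd35f12 was at 5.29 ± 0.36 in Ezh2-/- tumours and 6.74 ± 0.30 in Ezh2+/+ tumours (SD, n = 5 each; limma adjusted p = 0.000653). Btbd35f2, a measured neighbour of Btbd35f1, was at 6.52 ± 0.28 in Ezh2-/- tumours and 7.69 ± 0.30 in Ezh2+/+ tumours (SD, n = 5 each; limma adjusted p = 0.0014). Btbd35f16 fell by 1.56, Btbd35f5 by 1.17 and Btbd35f27 by 0.45, the last of which was not called without Ezh2-/- replicate 4 or with median centring. Btbd35f16 and Btbd35f5 averaged 2.73 and 3.09 in Ezh2-/- tumours and 4.29 and 4.26 in Ezh2+/+ tumours, in the range of the Y-linked genes. Btbd35f27 averaged 1.31 in Ezh2-/- tumours and 1.76 in Ezh2+/+ tumours, below that range. Btbd35f7 and Btbd35f28, which were not called, averaged 1.17 and 2.45 in Ezh2-/- tumours and 1.23 and 2.38 in Ezh2+/+ tumours, within or below the range of the Y-linked genes in both genotypes. All 7 are also named on probe sets shared with Btbd35f1 or Btbd35f17. How much the probes of the copies share was not tested.

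Similarity at the start site gave a further list, chosen after the values were seen: 12 measured genes with a window at least 80% identical to that of Speer4b or Speer4c over 150 bases or more. Of these, 7 fell and 0 rose, with a median difference of -0.53 (7 and 0 at an unadjusted p under 0.05, and 4 and 0 by the methods' own test). Without Ezh2-/- replicate 2, 4 fell. Of the 12, 5 are Speer genes already counted above, 3 of them among the 7 that fell. Gm10354, with 97.3% identity to the Speer4b window, fell by 1.57, at 4.35 ± 0.25 in Ezh2-/- tumours and 5.91 ± 0.37 in Ezh2+/+ tumours (SD, n = 5 each; limma adjusted p = 0.000294). Gm10220, with 96.4% identity, fell by 0.96 (limma adjusted p = 0.00476). Its means, 3.59 in Ezh2-/- tumours and 4.56 in Ezh2+/+ tumours, were in the range of the Y-linked genes. Speer4a and Gm5862, with 96.2% and 96.7% identity, were not called, with differences of -0.32 and 0.14. Gm5862 was at 2.49 ± 0.50 in Ezh2-/- tumours and 2.35 ± 0.29 in Ezh2+/+ tumours (SD, n = 5 each), near the floor. Genes with nearly the same window had both large and small differences on these arrays. The window of AY358078 had 1 relative, Gm8032, with 89.3% identity, and that of Zfp972 had 13, of which Zfp931 was the one measured with a probe set of its own. Zfp931 was not called, with a difference of 0.33.

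**Figure D2:**
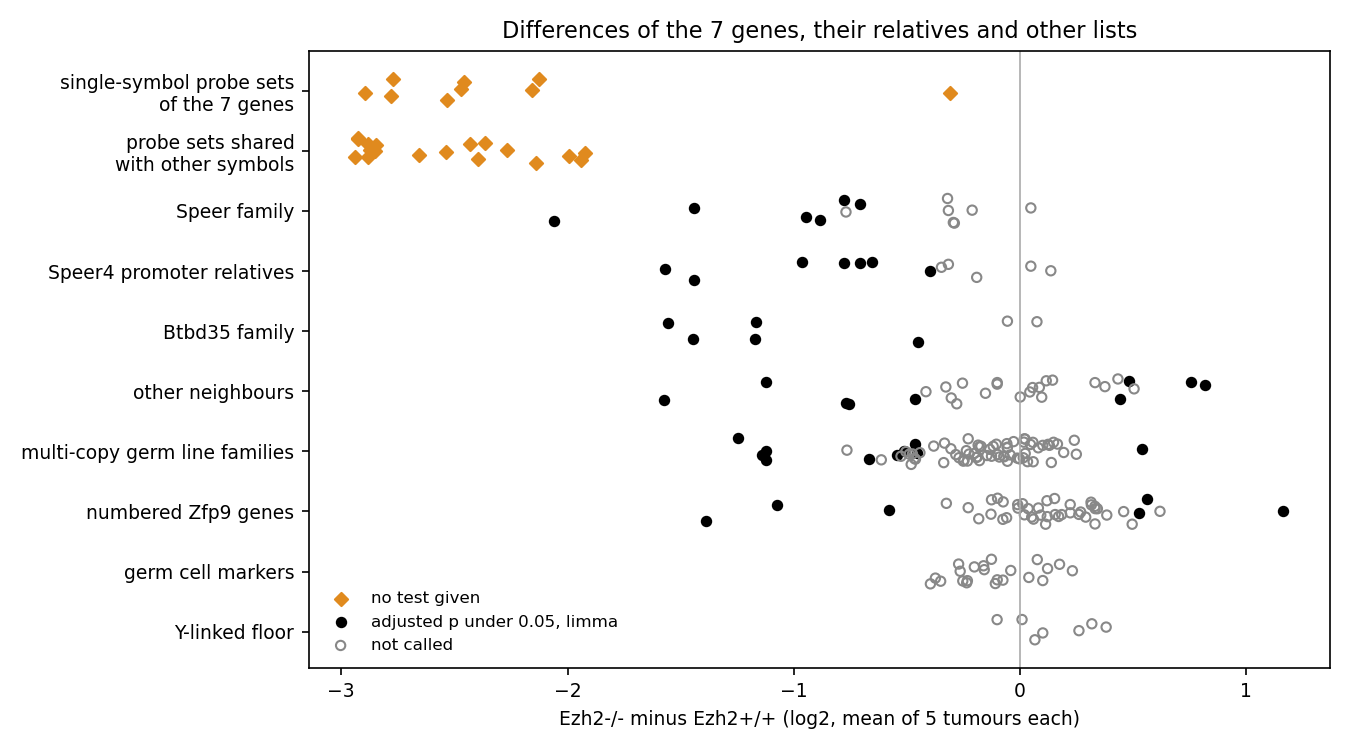
Log2 difference, Ezh2-/- minus Ezh2+/+ (x axis, means of 5 tumours each), for the probe sets of the 7 genes and those shared with other symbols (orange, no test), and for single genes of 8 lists (black where limma's adjusted p was under 0.05, open where not). The shared probe sets lie between -2.94 and -1.92, the further Speer and Btbd35 genes spread between -2.06 and 0.07, and the germ cell markers stay close to 0.

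The families lie in blocks, and the genes around them were looked at in the order of the RefSeq annotation, taking the 3 measured protein-coding genes on each side of each of the 7, a list also chosen after the values were seen. Neighbours were counted with the families by a Speer or Btbd35 symbol, or by a start-site window like that of one of the 7. Of 14 such neighbours, 11 fell and 0 rose (11 and 0 at an unadjusted p under 0.05, and 8 and 0 by the methods' own test). These are largely the same calls again, since 13 of the 14, with all 11 that fell, stand in the Speer, Btbd35 or start-site lists. Of 28 other neighbours, 5 (17.9%) fell and 4 rose, with a median difference of 0.02. Over all genes, 7.56% were called lower and 7.29% higher. With quantile normalization or cyclic loess, 3 of the 28 fell. Beside Speer4b, the PTIP-encoding gene Paxip1 rose by 0.48 (limma adjusted p = 0.0225), although it was not called without Ezh2-/- replicate 2, 3 or 4 or without Ezh2+/+ replicate 5, nor with quantile normalization or cyclic loess. Beside Speer4c, the calcium channel subunit gene Cacna2d1 rose by 0.82 (limma adjusted p = 0.00817). Beside BC061237, the eosinophil-associated ribonuclease gene Ear10 rose by 0.44 (limma adjusted p = 0.0211), at 1.86 ± 0.17 in Ezh2-/- tumours and 1.41 ± 0.13 in Ezh2+/+ tumours (SD, n = 5 each), both at the floor, and was not called without Ezh2-/- replicate 2 or 4 or Ezh2+/+ replicate 5. Beside Zfp972, none of the 6 neighbours was called. One of them, the zinc finger gene Zfp971, was counted among the 28 others, with a difference of 0.33.

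The 5 falls outside a family lay beside Btbd35f1, Btbd35f17 and AY358078. Gm4297, near Btbd35f1, was at 3.49 ± 0.47 in Ezh2-/- tumours and 5.07 ± 0.45 in Ezh2+/+ tumours (SD, n = 5 each; log2 difference -1.57, limma adjusted p = 0.00242). Slx, an X-linked multi-copy gene of developing sperm cells in the same block, was at 3.07 ± 0.38 in Ezh2-/- tumours and 4.19 ± 0.28 in Ezh2+/+ tumours (SD, n = 5 each; log2 difference -1.12, limma adjusted p = 0.00351). On the far side of the same block, Dock11, which encodes a guanine nucleotide exchange factor, rose by 0.75 (limma adjusted p = 0.000833). Beside Btbd35f17, Spin2-ps1 fell by 0.77 (limma adjusted p = 0.00965), and beside AY358078 the angiogenin family gene Ang4 fell by 0.76 (limma adjusted p = 0.00837) and the zinc transporter gene Slc39a2 by 0.46 (limma adjusted p = 0.0327). The call of Slc39a2 was lost without Ezh2-/- replicate 1, 2 or 4 or Ezh2+/+ replicate 1, 3, 4 or 5, and those of both genes with quantile normalization and cyclic loess.

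**Figure D3:**
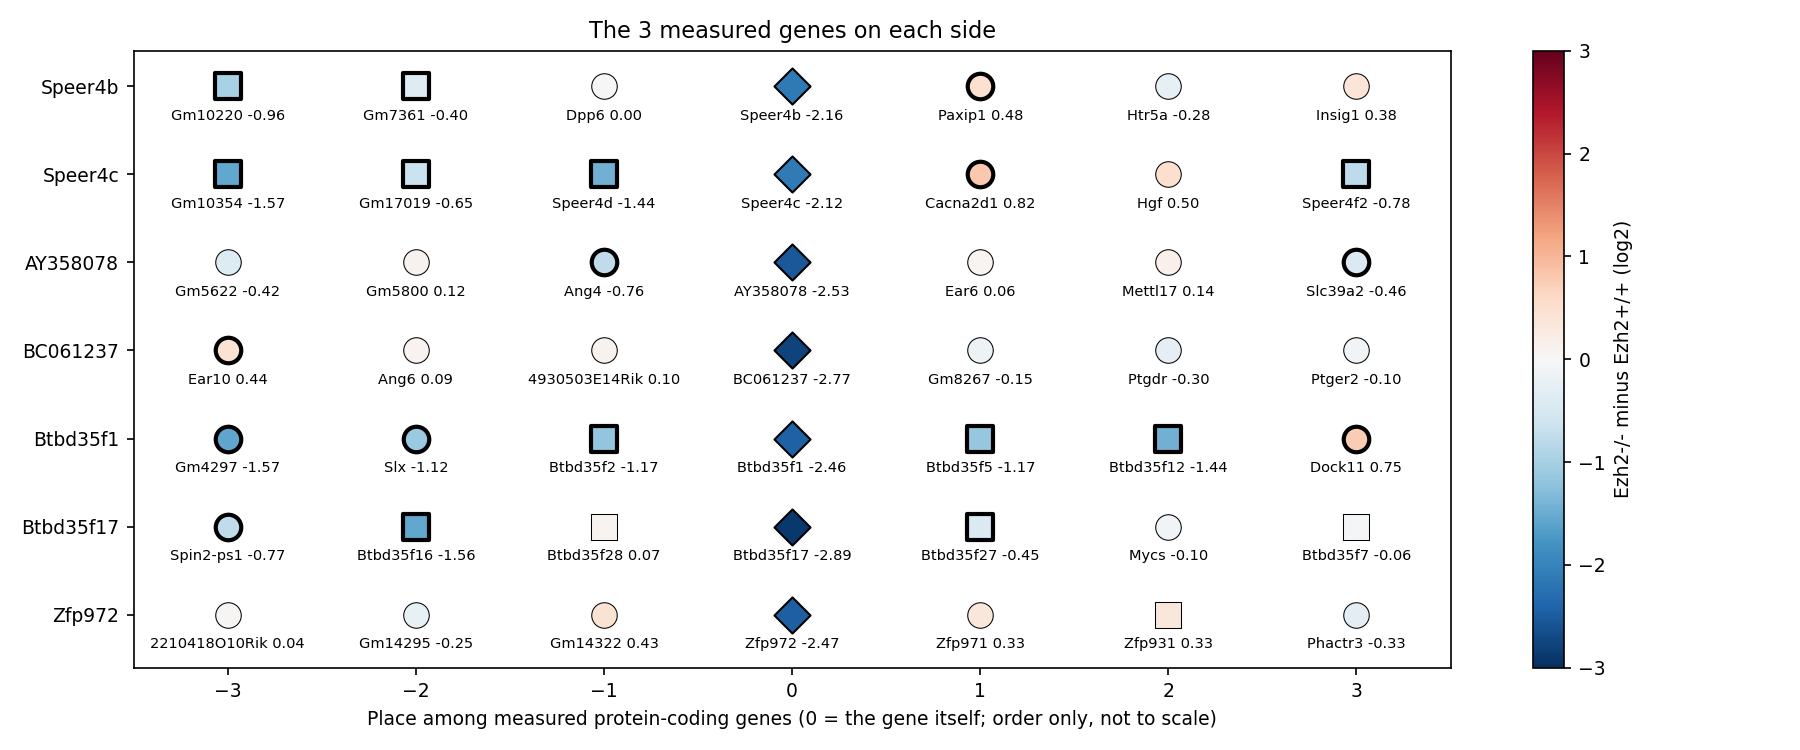
The 7 genes (diamonds) and the 3 measured protein-coding genes on each side, in their order along the chromosome (x axis, place only), coloured and numbered by the log2 difference, Ezh2-/- minus Ezh2+/+. Squares are Speer or Btbd35 genes or genes with a similar start-site window, and circles are other genes, Zfp971 among them. Thick outlines mark limma's adjusted p under 0.05 among neighbours. The falls of 1.57 and 1.12 outside the families of the 7 genes are both beside Btbd35f1.

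Most genes of other germ line families were not called. Of 75 genes of other multi-copy germ line families (such as Rhox, Xlr, Magea, Obox and Pramel genes), 9 fell and 1 rose, with a median difference of -0.17. The 9 are 12% of the list, against 7.56% of all genes called lower, and include Slx, counted above. Most of the list was dim, and the share called lower among genes as dim was not counted. Without the 40% dimmest genes, 8 of the 75 were left to test and 2 fell, against 535 of all 13308 genes left. At an unadjusted limma p under 0.05, 20 were lower and 1 higher, a count without a share over all genes. By the methods' own test 6 fell and 0 rose, against 1153 lower and 862 higher of all 22180 genes. Obox3, an oocyte homeobox gene, fell by 1.25 (limma adjusted p = 4.3e-05), the ferritin-like gene Fthl17b fell by 1.14 (limma adjusted p = 0.00357) and Pramel34 by 1.12 (limma adjusted p = 0.0141), and the gene that rose was Pramel13, by 0.54, which was not called without Ezh2-/- replicate 4 or Ezh2+/+ replicate 3, 4 or 5. With quantile normalization, median centring or cyclic loess, 4 fell. Of 46 further zinc finger genes with a Zfp number of 3 digits that starts with 9, 3 fell and 3 rose, with a median difference of 0.12 (4 lower and 10 higher at an unadjusted p under 0.05, and 2 and 2 by the methods' own test). Zfp979 fell by 1.39 (limma adjusted p = 0.000128), Zfp992 by 1.07 and Zfp981 by 0.58, while Zfp932 rose by 1.16 (limma adjusted p = 0.00269), Zfp946 by 0.56 and Zfp949 by 0.52. The calls of Zfp946 and Zfp981 were lost when single tumours of either genotype were left out (7 tumours for each), and that of Zfp949 without Ezh2-/- replicate 4.

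Markers of germ cells lay low in both genotypes. The 22 markers of spermatids, spermatocytes and germ cells in general (such as Prm1, Sycp1 and Ddx4) lay between 1.66 and 4.84 in Ezh2-/- tumours and between 1.35 and 4.61 in Ezh2+/+ tumours, close to the range of the Y-linked genes, and limma called 0 of 22 (5 were lower at an unadjusted p under 0.05, and 1 was called lower by the methods' own test). The smallest adjusted p, 0.0659, was that of Piwil2, with a difference of -0.40. Markers of other cells did differ: all 6 fibroblast markers (Col1a1, Col1a2, Col3a1, Pdgfra, Lum and Dcn) rose, with a median of 1.88 and levels of 6.62 to 10.45 in Ezh2-/- tumours, against 3.96 to 8.87 in Ezh2+/+ tumours. Dcn passed narrowly (limma adjusted p = 0.0465), and its call was lost without Ezh2-/- replicate 1, 2, 4 or 5 or Ezh2+/+ replicate 1, 3 or 4, with quantile normalization, cyclic loess or the intensity trend with a robust prior, and by the methods' own test, which called 5 of 6, and without the 40% dimmest genes. The 4 skeletal muscle markers had a median difference of 1.79 and levels of 3.60 to 11.10 in Ezh2-/- tumours, against 2.68 to 6.94 in Ezh2+/+ tumours, and limma called 0 of 4 (3 were higher at an unadjusted p under 0.05, and 0 passed the methods' own test). In whole tumours, fewer cells of a type and less RNA per cell cannot be told apart, and the part of these cells in the levels of the 7 genes was not tested.

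Whether the 7 genes moved together from tumour to tumour was examined with the genotype difference taken out, by the deviation of each tumour from the mean of its genotype. Ezh2+/+ replicate 5 had the highest value of its genotype in 6 of the 7 genes, all but AY358078, and a mean deviation of 0.57 over the 7. Ezh2+/+ replicates 2 and 4 were the lowest for 3 genes each, with mean deviations of -0.28 and -0.30. Among Ezh2-/- tumours the extremes were shared out: Speer4c, AY358078 and Btbd35f17 had their lowest value in replicate 1, while replicate 2 was the highest for 3 genes, and no tumour had a mean deviation beyond -0.12. Ezh2+/+ replicate 5 was also the highest of its genotype for 50.0% of the genes called lower, against 24.0% of all genes.

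**Figure D4:**
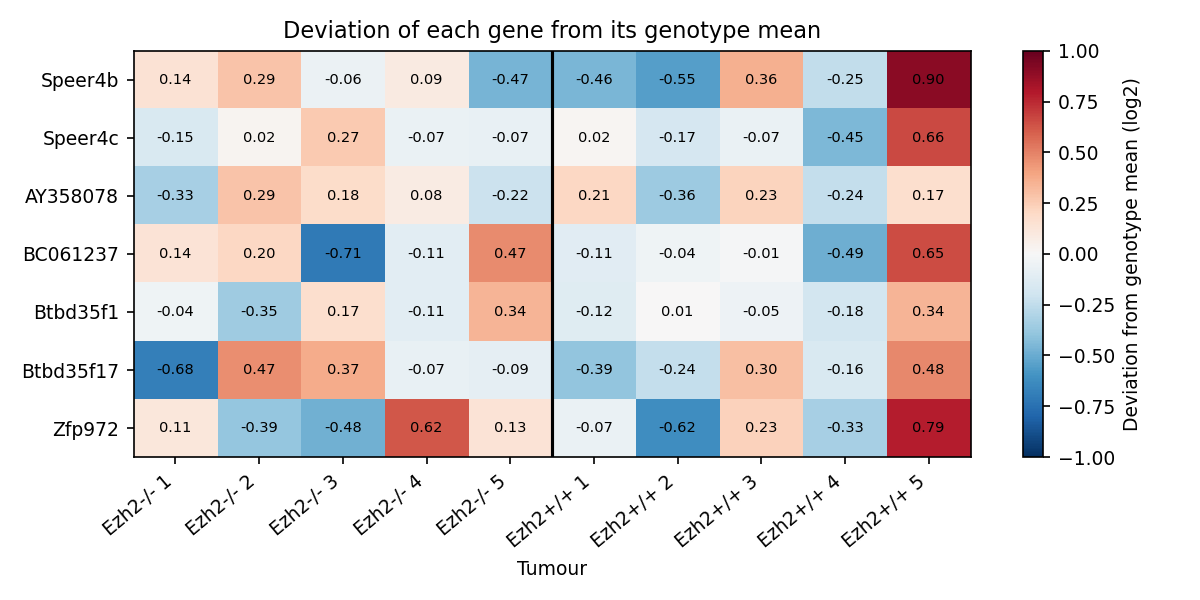
Deviation of each gene (rows) from the mean of its genotype in each tumour (columns, Ezh2-/- left of the line and Ezh2+/+ right), in log2 units. Ezh2+/+ replicate 5 is above the mean for all 7 genes, by 0.17 to 0.90.

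Over the 21 pairs, 19 correlations of the deviations were positive, with a median Pearson r of 0.41 and a range of -0.15 to 0.70 (n = 10 tumours), and a median Spearman rho of 0.30. None passed an exact permutation test within genotypes after Benjamini-Hochberg adjustment over the 21 pairs, with a smallest adjusted p of 0.32 for r and 0.308 for rho. Before adjustment, 2 pairs had p under 0.05. The r of AY358078 and Btbd35f17 was 0.70 (exact permutation p = 0.0438), with rho of 0.60 (exact permutation p = 0.094). The r of Speer4c and Btbd35f17 was 0.60 (exact permutation p = 0.0408), with rho of 0.73 (exact permutation p = 0.0294).

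The 2 pairs from within a family lay far apart in the range. Speer4b and Speer4c had an r of 0.64 (exact permutation p = 0.137) and a rho of 0.56 (exact permutation p = 0.154), and their r was 0.05 without Ezh2+/+ replicate 5. Btbd35f1 and Btbd35f17 had an r of 0.16 (exact permutation p = 0.691) and a rho of 0.19 (exact permutation p = 0.627). The first and second probe sets of BC061237 correlated at 0.75. Btbd35f1 correlated at 0.67 to 0.79 with the 9 probe sets shared among the family, and Btbd35f17, which they list as well, at 0.23 to 0.69. BC061237 correlated at 0.31 to 0.69 with its 5 shared probe sets, and Speer4b at -0.01 to 0.53 with its 4.

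The correlations changed most when 1 tumour was left out. Without Ezh2+/+ replicate 5, the median r of the 21 pairs was 0.04 and 12 were positive, with a range of -0.56 to 0.69. Without the 2 tumours farthest from the median of each first gene, the median r was 0.10 and 14 were positive. Without Ezh2+/+ replicate 5, the highest r were those of AY358078 with Speer4c and with Btbd35f17, at 0.69 and 0.68. Among all pairs of one of the 7 with any other gene, 15.7% had an r above the median of the 7.

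**Figure D5:**
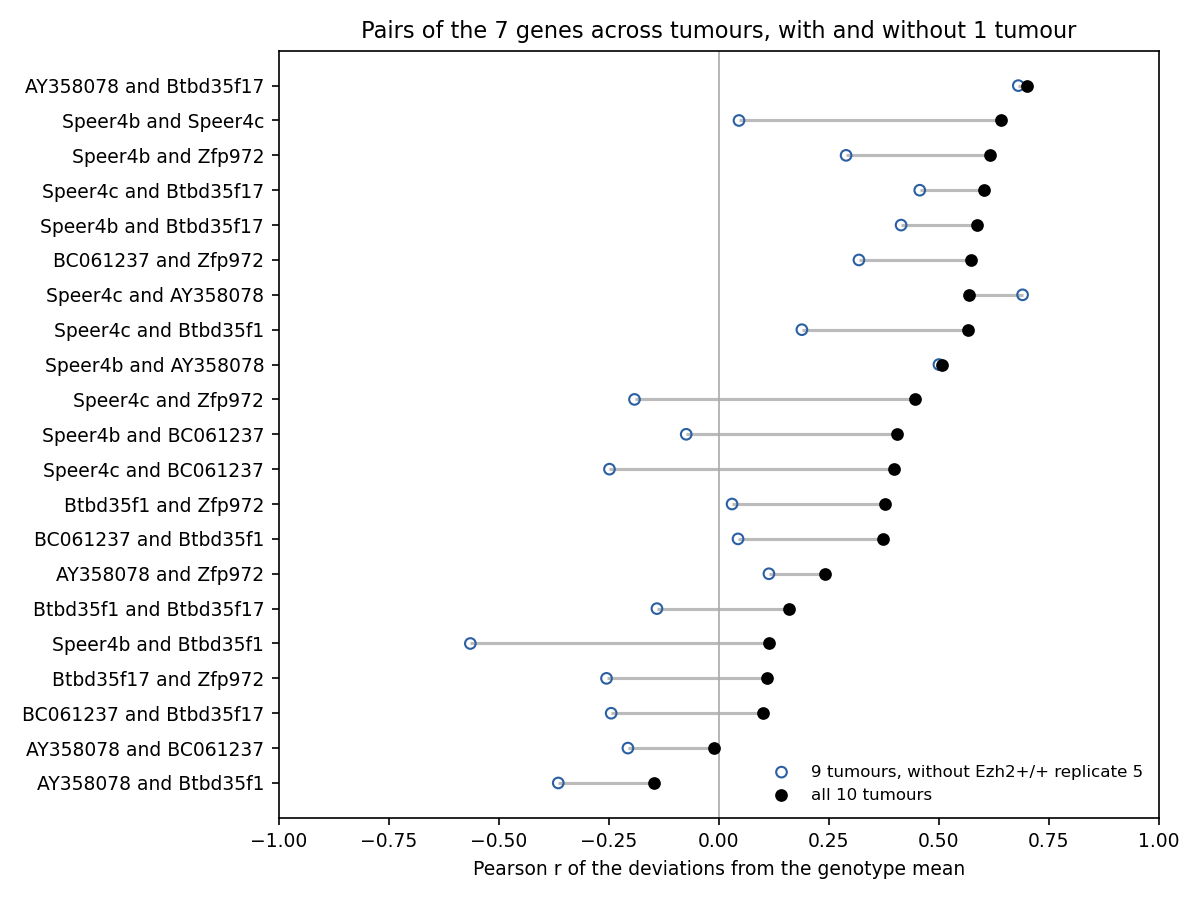
Pearson r of the deviations for the 21 pairs of the 7 genes (rows), over all 10 tumours (filled) and over 9 tumours without Ezh2+/+ replicate 5 (open). The median is 0.41 over 10 tumours and 0.04 over 9.

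For each of the 7, the gene whose deviations followed it most closely over the 10 tumours was another than one of the 7. These were the chemokine gene Ccl4 for Speer4b (r = 0.96), Pdp1 for Speer4c (r = 0.96), the olfactory receptor gene Olfr46 for AY358078 (r = 0.92), the vomeronasal receptor gene Vmn2r38 for BC061237 (r = 0.97), Rbm46 for Btbd35f1 (r = 0.97), Nemp2 for Btbd35f17 (r = 0.97) and the immunoglobulin segment Ighv1-53 for Zfp972 (r = 0.97). Olfr46, Vmn2r38 and Rbm46 averaged 2.01, 2.71 and 2.84 in Ezh2-/- tumours, against 2.69, 3.20 and 2.95 in Ezh2+/+ tumours. These means were in the range of the Y-linked genes. Each of the nearest genes is the highest of all other genes over only 10 tumours, and no p is given. The closest of the 7 to another was Btbd35f17, which ranked at place 244 for AY358078.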

How the data were processed

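Each of the 10 tumours (5 Ezh2-/-, 5 Ezh2+/+) was read on 1 Affymetrix Mouse Gene 2.0 array, whose scans the authors normalized at gene level with Expression Console. The algorithm and log base are not given in the sources used here. The deposited values, 0.595 to 13.2, were taken as log2 from their range, with no further scaling. The number of arrays limits the precision.

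Of 41345 probe sets, 23521 had 1 symbol, 1820 several and 16004 were not listed in the annotation. Each of 22180 genes was tested on its 1-symbol probe set with the highest mean, with limma 3.58.1 in R 4.3.3 (two-sided, Benjamini-Hochberg over all genes, called at an adjusted p under 0.05). The script was tested on simulated data. The members and lists were chosen with earlier results of these data known. All members and their nearest genes, Ezh2, the Y-linked genes and up to 4 called genes of each list with the smallest p were to be named, and others were named after their values were seen.

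Correlations used deviations from the genotype mean with an exact permutation within genotype (14400 orders). Promoter windows were compared with blastn 2.17.0. Figures used matplotlib 3.10.9 in Python 3.11.15. Alternatives were other scalings, the methods' own test, other priors, dim genes left out, the mean of probe sets, the replicate block and each tumour left out. The methods' own test was an ANOVA per gene with a Benjamini-Hochberg adjustment that the paper does not state.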

Additional observations from a re-analysis of the deposited data

Results flagged for a closer look

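Of 70 groups of 5 tumours checked (the probe sets of the 7 genes, the shared ones, the Y-linked genes and Ezh2), 2 held a tumour far from the others, where chance would give about 1 in 20. For the Y-linked gene Uty, Ezh2+/+ replicate 3 was at 2.21, while the other Ezh2+/+ tumours were at 1.92 to 1.94. On a probe set shared by Speer4b and other Speer4 copies, 1 Ezh2-/- tumour was at 4.60, far from the other Ezh2-/- tumours.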

How the results depend on the processing

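The median difference of the 7 genes stayed between -2.62 and -2.30 in every alternative run on it (other scalings, the mean of probe sets, each tumour left out). BC061237 alone moved, to -1.95 with the mean of its 3 probe sets. Median centring set the median of all genes to 0.20, so differences under it are relative to that, and its share of higher calls was 84.9%, against 60.3% with quantile normalization and 49.1% as deposited.

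Genes called lower numbered 1676, against 4415 over all probe sets, 996 with cyclic loess, 927 with median centring, 882 with quantile normalization and 535 without the 40% dimmest genes. They were 983 to 1920 with a tumour left out, the fewest without Ezh2-/- replicate 4. Genes called higher numbered 1617, against 5219 with median centring, 862 by the methods' own test and 748 to 2519 with a tumour left out, the fewest again without Ezh2-/- replicate 4 and the most without Ezh2-/- replicate 5. The labels number the tumours in both genotypes, and do not say that a number marks a shared mouse or batch. The deviations of same-numbered tumours correlated at -0.04 to 0.34, above 0.1 in 3 of 5 pairs, and 2 of 5 tumours correlated best with their own number. These values cannot settle whether the numbers mark pairs. The numbers were not taken as pairs because the labels do not name them so. With the replicate block, 1894 genes were lower and 2552 higher, and 1 of the 22 germ cell markers was lower.

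Without the 40% dimmest genes, fewer list members were left to test, and 1 of 2 Speer genes, 2 of 2 Btbd35 genes, 2 of 3 Speer4 look-alikes, 2 of 8 other germ line genes, 2 of 11 other neighbours and 1 of 26 zinc finger genes fell. Other germ line genes lower were 9 in the main test and 4 with quantile normalization, median centring or cyclic loess, and 6 to 13 with a tumour left out. Speer4 look-alikes lower were 7, against 4 by the methods' own test and 4 to 7 with a tumour left out. Of the other neighbours 3 were lower with quantile normalization or cyclic loess. One germ cell marker was called lower by the methods' own test, and 0 to 1 with a tumour left out. Zfp979 was not called with the mean of probe sets, nor Pramel34 by the methods' own test.

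The distance of the median member above the floor was 1.81 in Ezh2-/- tumours and 4.18 in Ezh2+/+ tumours. It was 1.20 in Ezh2-/- tumours with the mean of probe sets, and with the 5th percentile as the floor it was 2.68 in Ezh2-/- tumours and 4.98 in Ezh2+/+ tumours. The median r of the pairs was 0.04 to 0.53 with a tumour left out and 0.34 with the mean deviation of the dim genes subtracted. The cause of these changes was not tested. A search for relatives by protein sequence was not run. Signals near the floor in Ezh2-/- tumours limit what can be said, most of all for Speer4b and Btbd35f17. Zfp972 was also above every Y-linked gene in 0 of 5 Ezh2-/- tumours, and Speer4c and BC061237 in 1 of 5. Probes that bind several copies limit what can be said of any single copy.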
